A study of Mus musculus with 16 samples.

Results

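The canonical histone genes were followed in the mouse Th2 cell line D10 during T cell receptor stimulation with and without the Akt inhibitor Akti1/2. D10 derives from a T cell clone and grows fast. The members were all genes of the array whose symbol begins with Hist1h, Hist2h, Hist3h or Hist4h and goes on with a histone type. This rule took 56 of 18138 genes. By type they were 6 genes for H1, 15 for H2a, 15 for H2b, 9 for H3 and 11 for H4.

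Expression was measured on Illumina mouse RefSeq arrays in 8 groups of 2 arrays. The cells were left without inhibitor (control) or given Akti1/2 at 10 µM during 1 h of pre-incubation. Cells of both arms were then stimulated with antibodies to CD3 and CD28 for 0, 2, 6 or 12 h. All groups were D10 cells from cultures maintained with IL-2, and no genetic change is given. The labels give the control cells as untreated, while the study also names a solvent. D10 is 1 line from 1 clone, and Akti1/2 is a single allosteric inhibitor of Akt1 and Akt2. Nothing states that the duplicates came from separate cultures, so p-values measure only the spread between these arrays, which may be technical. Each of the 2 chips held 1 array of every group.

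Histone proteins package DNA into nucleosomes. Each nucleosome core is built from H2A, H2B, H3 and H4, and H1 binds the linker DNA between cores. The canonical genes sit in clusters of many near-identical copies, and their expression is coupled to DNA replication in S phase, when new chromatin must be assembled. Their mRNAs normally end in a stem-loop instead of a poly(A) tail, and some of these genes can also give polyadenylated transcripts. The RNA was labelled with a MessageAmp kit, which starts from an oligo(dT) primer. The signal is therefore not a measure of the whole histone mRNA pool, and which transcript forms it came from was not tested. In bulk RNA, fewer cells in a cycle phase and less RNA per cell cannot be told apart.

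Many H2a and H2b genes of the Hist1 cluster lie head to head, with divergent transcription from a shared stretch of DNA. Among members above background in both partners there were 5 such pairs, and their start sites lay 164 to 249 bases apart. The bases between the start sites are shown for these pairs because in 4 of them the H2a gene was called lower at 2 h in control cells and the H2b gene was not. They are from RefSeq, build GRCm38.p6, chromosome 13, written 5′ to 3′ on the strand of the H2b gene, from the H2a start to the H2b start. Capitals mark the core promoter letters TATAAA, the letters CCAAT, which NF-Y binds, and the octamer ATTTGCAT, which Oct-1 binds, each on either strand, and none of these strings contains another.
*Hist1h2ad* and *Hist1h2bf*, chr13:23574208-23574380, minus strand: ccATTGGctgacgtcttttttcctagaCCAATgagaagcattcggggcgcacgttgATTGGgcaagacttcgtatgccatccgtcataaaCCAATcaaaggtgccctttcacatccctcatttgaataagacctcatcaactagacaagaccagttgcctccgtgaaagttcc
*Hist1h2ae* and *Hist1h2bg*, chr13:23571221-23571399, plus strand: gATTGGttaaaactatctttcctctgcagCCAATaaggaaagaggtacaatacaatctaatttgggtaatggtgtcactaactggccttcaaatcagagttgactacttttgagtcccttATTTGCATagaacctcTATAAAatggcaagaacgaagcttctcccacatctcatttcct
*Hist1h2ag* and *Hist1h2bj*, chr13:22042950-22043197, plus strand: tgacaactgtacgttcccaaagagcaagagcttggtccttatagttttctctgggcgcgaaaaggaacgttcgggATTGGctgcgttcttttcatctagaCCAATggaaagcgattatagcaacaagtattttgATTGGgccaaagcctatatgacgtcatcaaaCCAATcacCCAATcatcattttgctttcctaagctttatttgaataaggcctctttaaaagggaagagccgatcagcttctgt
*Hist1h2ah* and *Hist1h2bk*, chr13:22035644-22035820, plus strand: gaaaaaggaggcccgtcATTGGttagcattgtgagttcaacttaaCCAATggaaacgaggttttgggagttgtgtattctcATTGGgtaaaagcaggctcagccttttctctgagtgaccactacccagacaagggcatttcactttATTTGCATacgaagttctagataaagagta
*Hist1h2ak* and *Hist1h2bn*, chr13:21753913-21754075, plus strand: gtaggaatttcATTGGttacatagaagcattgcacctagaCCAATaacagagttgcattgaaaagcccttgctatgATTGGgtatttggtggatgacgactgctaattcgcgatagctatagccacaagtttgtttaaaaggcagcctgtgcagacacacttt

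The 120 bases before the start site are shown for 3 further genes whose values are given array by array, the linker histone gene *Hist1h1c*, *Hist2h2ab* and *Hist1h4k*, with the same capitals.
*Hist1h1c*, chr13:23738687-23738806, plus strand: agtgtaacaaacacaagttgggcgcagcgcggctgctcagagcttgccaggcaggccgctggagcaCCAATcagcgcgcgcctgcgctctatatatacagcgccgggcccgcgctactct
*Hist2h2ab*, chr3:96219765-96219884, plus strand: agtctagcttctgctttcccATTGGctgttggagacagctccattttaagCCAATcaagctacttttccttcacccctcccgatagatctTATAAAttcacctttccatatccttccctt
*Hist1h4k*, chr13:21750554-21750673, minus strand: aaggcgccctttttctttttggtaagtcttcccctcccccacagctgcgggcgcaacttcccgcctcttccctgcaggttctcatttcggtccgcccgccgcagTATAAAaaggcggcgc

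Promoter windows of 250 bases before to 50 bases after the start were found for 49 of the 56 members, with 2 for *Hist1h2be*. CCAAT was present in each window of H1 (6), H2a (14), H2b (13) and H3 (7) and in 2 of 10 H4 windows, against 37.4% of all 32851 windows. TATAAA was present in 29 of the 50 member windows, against 13.6% of all windows. The octamer was present in 7 of 14 H2a and 7 of 13 H2b windows and in no H1, H3 or H4 window, against 1.74% of all windows. Windows of head-to-head partners overlap, so these counts are not independent. A match describes the letters only.

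On an array, a gene was taken as above background at a detection p under 0.01 against the 798 negative control bead types. A minimum of 2 such arrays among the 16 was required for testing, which left 7395 genes and 41 of the 56 members. These were 1 H1, 12 H2a, 11 H2b, 7 H3 and 10 H4 genes. The 15 others were *Hist1h1a*, *Hist1h1b*, *Hist1h1d*, *Hist1h1e*, *Hist1h1t*, *Hist1h2aa*, *Hist1h2ac*, *Hist1h2ba*, *Hist1h2be*, *Hist1h3f*, *Hist1h3h*, *Hist3h2a*, *Hist3h2ba*, *Hist3h2bb* and *Hist4h4*. Of these, *Hist1h3f* was above background on 1 array and the other 14 on none. Between 6288 and 6907 genes per array were above background, and between 35 and 41 members.

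Of the 11 T cell markers on the array, 10 passed this filter, *Thy1* being the exception. Of the 10 Th2 markers, 8 passed, among them *Gata3*, *Il4*, *Il5* and *Il13*, while *Ccr4* and *Maf* did not. No marker of CD8 T cells (0 of 2), B cells (0 of 5) or NK cells (0 of 4) passed. Of 10 myeloid markers only *Cd68* passed, with intensities of 314.4 and 250.5 at 12 h with Akti1/2 and 141.6 to 200.4 on the other arrays, while *Csf1r*, *Itgam*, *Cd14* and *Lyz2* did not. *Cd68* was higher with Akti1/2 at 12 h, by 1.42 ± 0.24 (SE) on the log2 scale, and its part in the histone results was not tested.

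After background correction with the negative controls and quantile normalization, group differences of log2 values were tested with limma over all 7395 genes with Benjamini-Hochberg adjustment. A gene was called, and is said to have risen or fallen, at an adjusted p under 0.05. Values below are log2 normalized intensities, and differences are log2 differences with SE and n = 2 arrays per group. Because the brightness of a bead also depends on its probe, levels of different genes were not compared.

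In control cells H2a genes fell early and H2b genes fell late. In control cells at 2 h, 9 H2a genes fell while 2 H2a and 2 H2b genes rose, so that 4 members rose and 9 fell, against 10.3% of all genes called in either direction. At 6 h, 8 members rose and 10 fell (27.6% of all genes called). At 12 h no member rose and 20 fell, against 27.8% of all genes called and 15.1% called lower. In inhibited cells 4 members were called at 2 h, of which 3 rose (38.7% of all genes called). By 6 h there were 15, with 13 that rose (33.3%). By 12 h 22 members had fallen and *Hist1h4k* alone had risen (44.5% called and 23.3% called lower). The rise of *Hist1h4k* at 12 h was not called without either 0 h Akti1/2 array or replicate 1 of 12 h Akti1/2 (limma, adjusted p = 0.0965 to 0.244).

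Before stimulation, the 1 h pre-incubation with Akti1/2 left no member past the threshold (limma, 0.0541% of all genes called). At an unadjusted p under 0.05, 13 members differed at 0 h, against 5.15% of all genes. Against control cells of the same time, 13 members differed at 2 h, of which 12 were higher in inhibited cells (28.4% of all genes called). At 6 h 25 members were higher and none lower, against 37.6% of all genes called and 18.8% called higher. At 12 h 9 were higher and 2 lower (49% of all genes called), and 7 were called in all without replicate 1 of 12 h control or replicate 2 of 12 h Akti1/2. The counts that involve 6 h with Akti1/2 include *Hist1h4c* and *Hist2h2bb*, which were above background on no control array and passed the filter through the group in which they were high. The 12 higher at 2 h also include *Hist2h2bb*, which was above background on 1 of the 4 arrays compared and was not called in 3 of the fits that left out 1 array (limma, adjusted p up to 0.199).

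Calls were also counted that held in each of the 16 fits that left out 1 array. In control cells these were 10 of 13 at 2 h, 11 of 18 at 6 h and 16 of 20 at 12 h. With Akti1/2 they were 2 of 4, 9 of 15 and 19 of 23. Against control cells of the same time, 10 of 13 held at 2 h, 21 of 25 at 6 h and 6 of 11 at 12 h. For the difference in response between the arms, 4 of 11, 5 of 11 and 5 of 8 held.

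**Figure D1:**
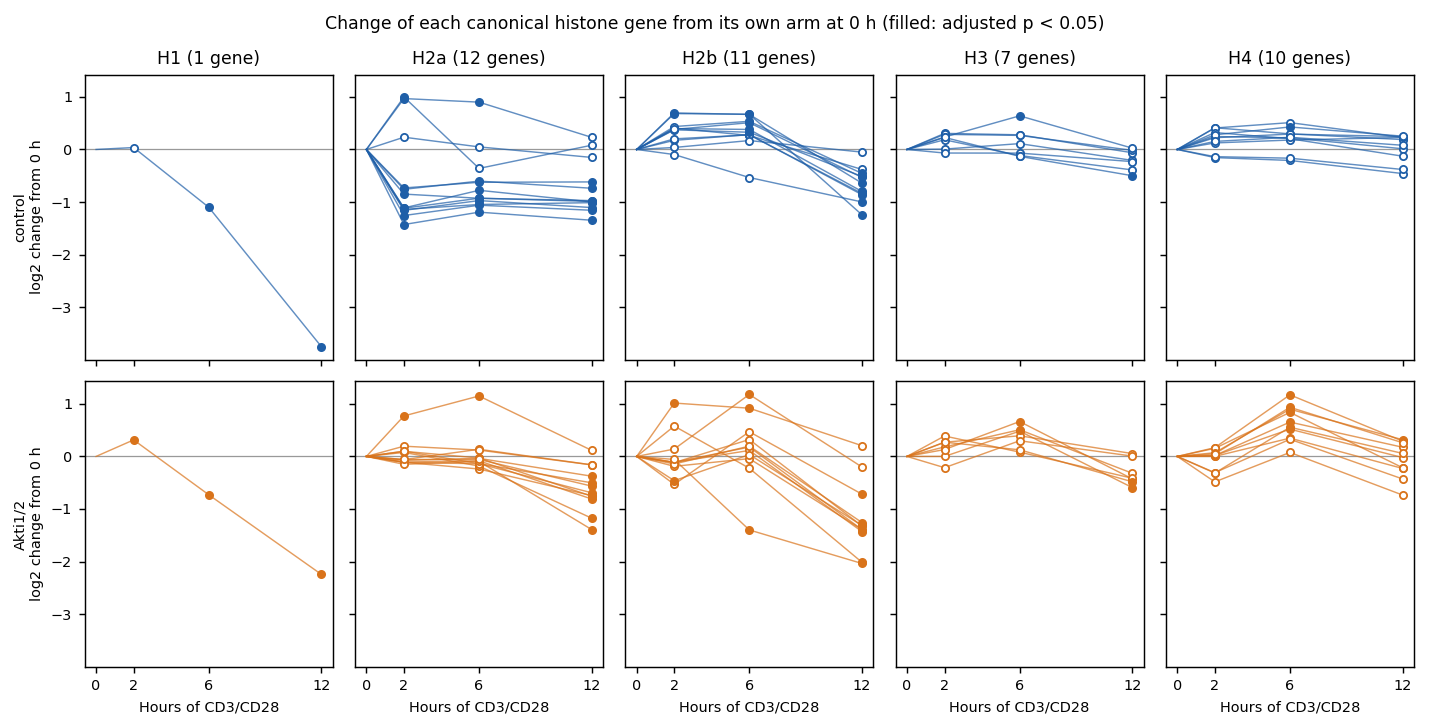
Change of each of the 41 tested canonical histone genes from 0 h of its own arm (log2, vertical axis) over hours of CD3/CD28 stimulation, by histone type, in control cells (top) and Akti1/2-treated cells (bottom). Lines join the group means of 1 gene, and filled points passed an adjusted p under 0.05. In control cells 9 H2a lines drop at 2 h and stay low, while with Akti1/2 they stay near 0 until 12 h.

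The 1 linker histone gene above background, *Hist1h1c* (H1.2), showed the largest fall of any member. In control cells it read 12.18 and 12.08 at 0 h, 12.20 and 12.14 at 2 h, 11.08 and 10.99 at 6 h, then 8.35 and 8.41 at 12 h. With Akti1/2 it read 12.32 and 12.27 at 0 h, 12.56 and 12.67 at 2 h, 11.52 and 11.62 at 6 h, then 10.14 and 9.97 at 12 h. Both arms ended below their start, and at 12 h the arrays with the inhibitor lay above those without by more than the spread of either pair. In control cells the gene fell by 1.10 at 6 h and fell by 3.75 at 12 h (each SE 0.10), to 0.0743 of its level at 0 h (limma, adjusted p = 3.75e-10). With Akti1/2 it rose by 0.31 at 2 h (adjusted p = 0.0292 by limma), fell by 0.73 at 6 h and fell by 2.24 at 12 h.

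*Hist1h1c* was higher with Akti1/2 at each stimulated time. The difference from control cells was 0.44 at 2 h, 0.53 at 6 h and 1.67 at 12 h (each SE 0.10), which is 3.18-fold at 12 h (limma, adjusted p = 1.75e-07). On the 2 chips alone the 12 h difference was 1.72 and 1.62. The response from 0 h differed between the arms at 12 h by 1.51 ± 0.15 (limma interaction, adjusted p = 2.06e-05). At 2 h and 6 h the responses differed by 0.28 and 0.37, which did not pass. The rise at 2 h with Akti1/2 was not called when either 0 h Akti1/2 array or replicate 2 of the 2 h Akti1/2 arrays was left out (adjusted p = 0.0768 to 0.151 by limma). The difference from control cells at 2 h was not called without replicate 2 of 2 h Akti1/2 (adjusted p = 0.0592).

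H2a genes fell early in control cells. Of 12 tested, 9 fell at 2 h (*Hist1h2ad*, *Hist1h2af*, *Hist1h2ag*, *Hist1h2ah*, *Hist1h2ak*, *Hist1h2an*, *Hist1h2ao*, *Hist2h2ab* and *Hist2h2ac*), by 0.73 to 1.43, against 5.86% of all genes called lower. All 9 were also lower than at 0 h at 6 h and at 12 h. These genes encode the H2A core protein or close copies of it and lie in the Hist1 and Hist2 clusters. The 9 were grouped after their values were seen.

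*Hist1h2ag* read 11.34 and 11.27 at 0 h, 9.98 and 10.11 at 2 h, 10.18 and 10.30 at 6 h, then 10.16 and 10.13 at 12 h in control cells. In inhibited cells it read 11.33 and 12.07 at 0 h, 11.76 and 11.79 at 2 h, 11.52 and 11.51 at 6 h, then 10.51 and 10.53 at 12 h. Without inhibitor the 0 h arrays stood above all later arrays, whereas with the inhibitor only the 12 h arrays lay below the others. The gene fell by 1.26 ± 0.18 at 2 h in control cells (limma, adjusted p = 0.000753), and its change with Akti1/2 at 2 h was 0.08 ± 0.18 (adjusted p = 0.757). At 2 h it was 3.31-fold higher with Akti1/2 (1.73 ± 0.18 on the log2 scale, adjusted p = 5.85e-05 by limma).

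*Hist2h2ab*, from the Hist2 cluster, read 10.46 and 10.54 at 0 h, 8.92 and 9.22 at 2 h, 9.15 and 9.47 at 6 h, then 9.22 and 9.09 at 12 h in control cells. Under the inhibitor it read 10.47 and 11.25 at 0 h, 10.68 and 10.74 at 2 h, 10.68 and 10.85 at 6 h, then 9.43 and 9.51 at 12 h. The arrays of the inhibited cells lay above every stimulated control array until 6 h. It fell by 1.43 ± 0.21 at 2 h in control cells, the largest fall of an H2a gene, and was 1.64 ± 0.21 higher with Akti1/2 at 2 h (limma, adjusted p = 0.000227).

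*Hist1h2ao* read 15.05 and 15.05 at 0 h, 14.35 and 14.29 at 2 h, 14.36 and 14.50 at 6 h, then 14.42 and 14.46 at 12 h in control cells. Its Akti1/2 arrays read 14.96 and 15.02 at 0 h, 14.93 and 14.89 at 2 h, 14.99 and 14.91 at 6 h, then 14.63 and 14.59 at 12 h. The pattern was the same in direction with a smaller range, a fall of 0.73 ± 0.09 at 2 h in control cells (limma, adjusted p = 0.000353). Before normalization, its intensities were 37353 and 30312 at 0 h and 22566 and 18855 at 2 h in control cells. The first of these was the highest intensity of any gene on any array; scanner saturation was not tested.

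*Hist2h2ac* read 14.89 and 14.91 at 0 h, 14.23 and 14.06 at 2 h, 14.28 and 14.32 at 6 h, then 14.06 and 14.27 at 12 h in control cells. With Akti1/2 it read 14.91 and 15.05 at 0 h, 15.05 and 14.80 at 2 h, 14.80 and 15.05 at 6 h, then 14.32 and 14.52 at 12 h. *Hist1h2af* read 14.17 and 14.15 at 0 h, 12.98 and 13.12 at 2 h, 13.39 and 13.38 at 6 h, then 13.14 and 13.19 at 12 h in control cells. In both genes the stimulated control arrays lay below both 0 h arrays. With Akti1/2, *Hist1h2af* read 13.99 and 14.38 at 0 h, 14.31 and 14.27 at 2 h, 14.05 and 14.05 at 6 h, then 13.61 and 13.76 at 12 h. *Hist1h2ad* read 14.21 and 14.21 at 0 h, 13.09 and 13.08 at 2 h, 13.28 and 13.28 at 6 h, then 13.17 and 13.26 at 12 h in control cells. In inhibited cells it read 14.09 and 14.54 at 0 h, 14.23 and 14.17 at 2 h, 13.99 and 14.15 at 6 h, then 13.59 and 13.54 at 12 h. Each of these genes fell at 2 h in control cells, by 0.76, 1.11 and 1.12 for *Hist2h2ac*, *Hist1h2af* and *Hist1h2ad*.

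With Akti1/2, none of these 9 genes passed the test at 2 h or at 6 h. By 12 h all 9 had fallen from 0 h, by 0.38 to 1.39, although *Hist1h2af* was not called without replicate 2 of 0 h Akti1/2 or replicate 1 of 12 h Akti1/2 (limma, adjusted p = 0.0548 and 0.0819). Over all 12 tested H2a genes the median change in control cells was -0.98 at 2 h, -0.85 at 6 h and -0.98 at 12 h, beside -0.02, -0.02 and -0.01 over all genes. With Akti1/2 the H2a medians were -0.06, -0.07 and -0.63.

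Against control cells, 9 of 12 H2a genes were higher with Akti1/2 at 2 h, 11 at 6 h and 5 at 12 h, and none was lower. Of all genes, 13.5% were called higher at 2 h, 18.8% at 6 h and 24.2% at 12 h. At 12 h the H2a share called was 41.7%, against 49% of all genes called in either direction. The 2 h Akti1/2 arrays had mean intensities of 414 and 394, against 529 and 467 for 2 h control and a median of 475 over the 16 arrays. The 95th percentile of intensity on replicate 2 of 2 h Akti1/2 was 8.98 times the mean negative control, the lowest of the 16 (median 12.7). The 9 H2a genes were called higher at 2 h also without either of these 2 arrays. The response from 0 h differed between the arms for 9 H2a genes at 2 h, by 0.66 to 1.33 and all in the direction of a smaller fall with Akti1/2. The share of all genes with a called difference in response was 8.4% at 2 h, 19.5% at 6 h and 32.5% at 12 h. At 6 h 8 H2a genes differed in response and at 12 h *Hist1h2af* did, by 0.50 ± 0.18 (limma, adjusted p = 0.0478), a call lost in 13 of the 16 fits that left out 1 array (adjusted p up to 0.199). Of the 5 genes higher at 12 h, *Hist1h2ad* was not called in 12 of these fits (up to 0.180), *Hist1h2ak* in 4 (up to 0.165) and *Hist1h2ah* in 3 (up to 0.155). Of the 9 that differed in response at 2 h, *Hist2h2ac* was not called in 9 of these fits and *Hist2h2ab* in 5. *Hist1h2ah*, *Hist1h2an* and *Hist1h2ao* were not called in 2 each. Of the 8 at 6 h, *Hist1h2ag* was not called in 7, *Hist1h2ad* in 6, and *Hist1h2af* and *Hist2h2ab* in 5 each.

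The median difference between the 2 arrays of a group over the members was 0.211 at 0 h with Akti1/2, the highest of the 8 groups, and for *Hist1h2ag* these arrays read 11.33 and 12.07. Within 1 chip, the difference in response of *Hist1h2ag* at 2 h was 1.79 on chip 1 and 0.88 on chip 2. At 2 h, 4 members in place of 11 differed in response without replicate 1 of 0 h Akti1/2, and 6 without either 0 h control array. At 6 h, in place of 11, the count was 6 without replicate 1 of 0 h control or of 0 h Akti1/2, 5 without replicate 2 of 0 h control or replicate 1 of 6 h control, and 7 without replicate 2 of 6 h control. The direct comparison at 2 h does not use these arrays, and *Hist1h2ag* was 1.78 and 1.68 higher with Akti1/2 on the 2 chips.

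Across the 16 arrays, the 9 genes were correlated with each other with a median r of 0.96 (36 gene pairs, 0.93 to 0.99), as a description. Within groups the median r was 0.43. Histone gene copies are near-identical in sequence, probe sequences were not used here, and beads for 1 copy may bind RNA of another. The 9 genes may therefore not be 9 independent measurements.

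The other 3 H2a genes behaved differently. *Hist2h2aa1* rose by 0.97 ± 0.11 at 2 h and by 0.90 ± 0.11 at 6 h in control cells, and by 0.77 and 1.15 with Akti1/2. It read 7.32 and 7.20 at 0 h and 8.17 and 8.29 at 2 h in control cells, without overlap. *Hist1h2ae* rose by 1.00 ± 0.21 at 2 h in control cells (limma, adjusted p = 0.00984) and fell by 1.36 between 2 h and 6 h. *Hist1h2ab* passed no test, with changes between -0.16 and 0.23 from 0 h in the 2 arms.

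**Figure D2:**
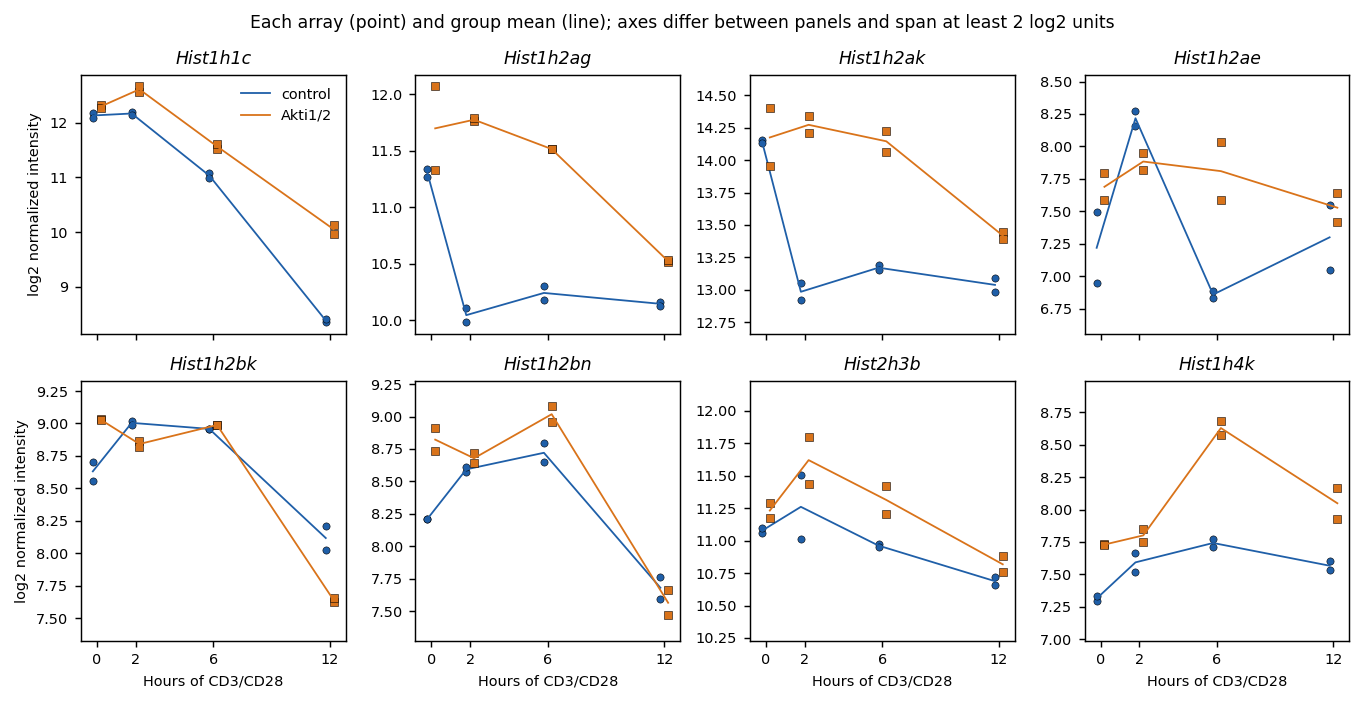
Log2 normalized intensity on each array (points) and group means (lines) for 8 canonical histone genes over hours of CD3/CD28 stimulation, in control (circles) and Akti1/2-treated cells (squares). Vertical axes differ between panels and span at least 2 log2 units. *Hist1h2ag* and *Hist1h2ak* drop at 2 h in control cells alone, *Hist1h2bk* and *Hist1h2bn* drop at 12 h in both arms, and *Hist1h4k* peaks at 6 h with Akti1/2.

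H2b genes, which encode the dimer partner of H2A, fell late in both arms. In control cells 2 of 11 rose at 2 h (*Hist1h2bg* and *Hist1h2bk*), 5 rose at 6 h and 9 fell at 12 h, with a median change of 0.38, 0.33 and -0.64. These calls are 18.2%, 45.5% and 81.8% of the 11 genes, against 10.3%, 27.6% and 27.8% of all genes called. None of the rises was called in each of the 16 fits that left out 1 array. At 6 h *Hist1h2bh* was not called in 8 of them (limma, adjusted p up to 0.165), *Hist1h2bk* in 3 (up to 0.190), *Hist1h2bm* in 3 (up to 0.0821), and *Hist1h2bg* and *Hist1h2bn* in 1 each. At 12 h *Hist1h2bm* was not called in 4 (up to 0.116), *Hist2h2be* in 2 (up to 0.137) and *Hist1h2bn* in 1. In inhibited cells *Hist1h2bg* rose and *Hist1h2bm* fell at 2 h, the latter not called without either 0 h Akti1/2 array or replicate 1 of 2 h Akti1/2 (limma, adjusted p = 0.0772 to 0.141). At 6 h *Hist1h2bg* rose and *Hist2h2be* fell, and *Hist2h2bb* was called higher, although it was not above background at 0 h. By 12 h 9 had fallen, of which *Hist1h2bb* was not called without replicate 1 of 0 h Akti1/2 or replicate 2 of 12 h Akti1/2 (limma, adjusted p = 0.232 and 0.263), and the medians were -0.11, 0.18 and -1.32. With Akti1/2 the share of the 11 genes called was 18.2% at 2 h, 27.3% at 6 h and 81.8% at 12 h. Over all genes it was 38.7%, 33.3% and 44.5%, so the H2b share was lower at 2 h and 6 h. *Hist1h2bg* is among the 9 that fell in control cells, although it was not above background in either group of that comparison. Among the 9 H2b genes above background on all 16 arrays, 8 fell at 12 h in control cells and 9 with Akti1/2, when only such genes were tested.

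*Hist1h2bk* read 8.56 and 8.70 at 0 h, 9.02 and 8.99 at 2 h, 8.96 and 8.96 at 6 h, then 8.21 and 8.03 at 12 h in control cells. Under the inhibitor it read 9.03 and 9.03 at 0 h, 8.86 and 8.82 at 2 h, 8.99 and 8.99 at 6 h, then 7.62 and 7.66 at 12 h. The 12 h arrays lay lowest in both arms, and those with Akti1/2 lay below those of control cells. The fall from 0 h to 12 h was 0.51 ± 0.10 in control cells and 1.39 ± 0.10 with Akti1/2 (limma, adjusted p = 4.49e-07), and the difference in response was -0.88 ± 0.14 (adjusted p = 0.000575).

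*Hist1h2bf* read 9.80 and 9.81 at 0 h, 9.97 and 9.99 at 2 h, 10.05 and 10.13 at 6 h, then 8.98 and 8.92 at 12 h in control cells. Its Akti1/2 arrays read 10.31 and 10.09 at 0 h, 10.17 and 9.99 at 2 h, 10.60 and 10.45 at 6 h, then 9.00 and 8.75 at 12 h. *Hist1h2bh* read 9.12 and 9.11 at 0 h, 9.54 and 9.48 at 2 h, 9.46 and 9.53 at 6 h, then 8.39 and 8.24 at 12 h in control cells. In both genes the 12 h arrays stood apart below all others of the control arm. With Akti1/2, *Hist1h2bh* read 9.70 and 9.57 at 0 h, 9.37 and 9.68 at 2 h, 9.89 and 9.74 at 6 h, then 8.34 and 8.14 at 12 h. *Hist1h2bj* read 9.67 and 9.73 at 0 h, 9.84 and 9.96 at 2 h, 9.97 and 9.98 at 6 h, then 9.06 and 8.67 at 12 h in control cells. With Akti1/2 it read 10.22 and 9.94 at 0 h, 9.89 and 10.05 at 2 h, 10.21 and 10.18 at 6 h, then 8.70 and 8.61 at 12 h. The 3 genes fell at 12 h by 0.86, 0.80 and 0.84 in control cells and by 1.32, 1.39 and 1.43 with Akti1/2, in this order. Each fall is from 0 h of its own arm, where all 3 genes read higher with Akti1/2. None of the 3 was called between the arms at 12 h.

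*Hist1h2bc* read 8.18 and 8.49 at 0 h, 8.77 and 9.26 at 2 h, 9.14 and 8.87 at 6 h, then 7.07 and 7.12 at 12 h in control cells. In inhibited cells it read 9.08 and 8.43 at 0 h, 9.12 and 9.55 at 2 h, 8.25 and 8.81 at 6 h, then 6.88 and 6.60 at 12 h. It fell by 1.24 ± 0.26 at 12 h in control cells and by 2.01 ± 0.26 with Akti1/2 (limma, adjusted p = 5.05e-05). *Hist2h2be* read 7.23 and 7.79 at 0 h, 7.04 and 7.80 at 2 h, 6.93 and 7.03 at 6 h, then 6.42 and 6.61 at 12 h in control cells. Under the inhibitor it read 8.22 and 7.73 at 0 h, 7.86 and 7.98 at 2 h, 6.30 and 6.86 at 6 h, then 6.04 and 5.84 at 12 h. It was the 1 H2b gene that fell already at 6 h with Akti1/2, where it fell by 1.40 ± 0.27. At 12 h it fell by 2.04.

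At 0 h all 11 H2b genes read higher with Akti1/2, by 0.36 to 0.61, although none was called. Of these, 8 had an unadjusted p under 0.05 by limma, against 5.15% of all genes. At 12 h the direct comparison found 1 H2b gene lower (*Hist1h2bk*, by 0.48 ± 0.10) and 1 higher (*Hist1h2bg*). That is 18.2% of the 11 genes, below the 49% of all genes called. Over all members, 8 differed in response at 12 h, 5 did without replicate 1 of 0 h control, replicate 1 of 0 h Akti1/2 or replicate 2 of 12 h Akti1/2, and 13 without replicate 2 of 0 h Akti1/2. The 8 are 19.5% of the tested members, below the 32.5% of all genes called. This difference, which includes the 0 h arrays, was called for 5 H2b genes in the negative direction (*Hist1h2bh*, *Hist1h2bj*, *Hist1h2bk*, *Hist1h2bm* and *Hist1h2bn*, -0.59 to -0.88). Among H2b genes 54.5% were called in either direction. At 2 h *Hist1h2bk* and *Hist1h2bm* differed in response, by -0.56 and -0.90, calls that were lost in 6 and 5 of the 16 fits that left out 1 array (limma, adjusted p up to 0.114 and 0.0620). At 12 h those of *Hist1h2bh* and *Hist1h2bj* were lost in 5 and 6 (up to 0.0836 and 0.145).

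*Hist1h2bg* was above background on 11 arrays and on neither 12 h control array. At 12 h it was at least 1.26-fold higher with Akti1/2 (limma, adjusted p = 2.01e-05). *Hist2h2bb* was above background on 3 arrays, both arrays of 6 h Akti1/2 and 1 of 2 h Akti1/2. It passed the filter through the group in which it was high, so its calls are no independent result. At 6 h it was at least 1.53-fold higher with Akti1/2. These folds are bounds set by the dimmest signal above background on the arrays where the gene was not detected.

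The head-to-head pairs set the 2 types side by side from 1 stretch of DNA. At 2 h in control cells the H2a partner fell in 4 of 5 pairs, by 1.12 (*Hist1h2ad*), 1.26 (*Hist1h2ag*), 1.14 (*Hist1h2ah*) and 1.16 (*Hist1h2ak*). The H2b partners changed by 0.17 (*Hist1h2bf*), 0.20 (*Hist1h2bj*), 0.37 (*Hist1h2bk*) and 0.38 (*Hist1h2bn*), of which that of *Hist1h2bk* passed, although not without any 1 of the 4 arrays compared (limma, adjusted p = 0.0723 to 0.223). In the fifth pair both partners rose, *Hist1h2ae* by 1.00 and *Hist1h2bg* at least 1.34-fold, since neither of its 0 h control arrays was above background. Neither rise was called without replicate 1 of 0 h or of 2 h control, and that of *Hist1h2bg* also not without replicate 2 of 0 h control (limma, adjusted p up to 0.111 and 0.0992). The difference within a pair was not tested.

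*Hist1h2ak* read 14.15 and 14.13 at 0 h, 13.05 and 12.92 at 2 h, 13.19 and 13.15 at 6 h, then 12.98 and 13.09 at 12 h in control cells. Its partner *Hist1h2bn* read 8.21 and 8.21 at 0 h, 8.57 and 8.61 at 2 h, 8.79 and 8.65 at 6 h, then 7.59 and 7.77 at 12 h. The start sites of this pair are 164 bases apart, and the sequence between them, shown above, holds the letters CCAAT 3 times. With Akti1/2, *Hist1h2ak* read 13.95 and 14.40 at 0 h, 14.34 and 14.21 at 2 h, 14.23 and 14.06 at 6 h, then 13.44 and 13.39 at 12 h. *Hist1h2bn* read 8.91 and 8.73 at 0 h, 8.64 and 8.72 at 2 h, 9.08 and 8.96 at 6 h, then 7.66 and 7.47 at 12 h. At 2 h *Hist1h2ak* was 1.29 ± 0.14 higher with Akti1/2 (limma, adjusted p = 7.46e-05) and *Hist1h2bn* 0.09 ± 0.11 (adjusted p = 0.608).

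By 12 h both partners of these 4 pairs lay below 0 h in both arms. In control cells the H2a partners fell by 0.99 to 1.16 and the H2b partners by 0.51 to 0.86. With Akti1/2 the H2a partners fell by 0.74 to 1.18 and the H2b partners by 1.26 to 1.43. TATAAA was present between the starts of the *Hist1h2ae* and *Hist1h2bg* pair, and in none of the 4 others.

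**Figure D3:**
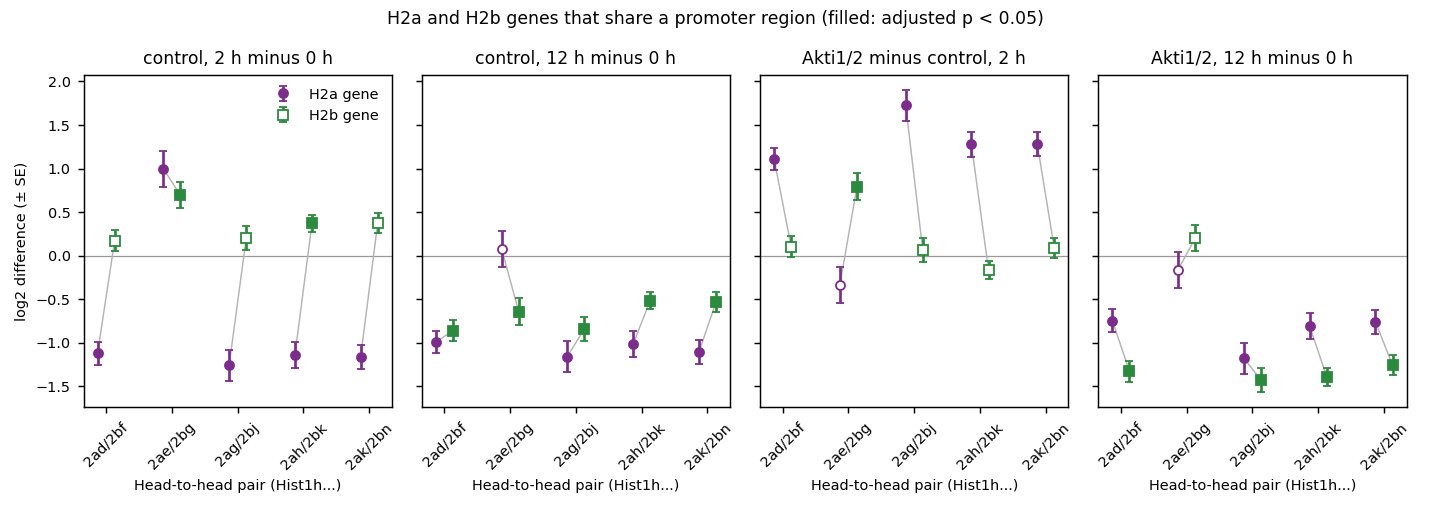
Log2 differences with SE for the H2a (circles) and H2b (squares) gene of 5 head-to-head pairs in 4 comparisons, with filled points at an adjusted p under 0.05. In control cells at 2 h the H2a gene of 4 pairs sits between -1.12 and -1.26 while its H2b partner sits between 0.17 and 0.38. At 12 h both partners of these pairs lie below 0.

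H3, which with H4 forms the central tetramer of the nucleosome, changed in few genes in control cells. Of 7 tested, none passed at 2 h, *Hist1h3g* rose by 0.64 ± 0.19 at 6 h and *Hist2h3c1* fell by 0.50 ± 0.11 at 12 h. The H3 share called was 14.3% at 6 h and at 12 h. Of all genes 10.3% were called at 2 h, 27.6% at 6 h and 27.8% at 12 h. The rise of *Hist1h3g* was not called without any 1 of the 4 arrays compared (limma, adjusted p = 0.0655 to 0.129), and the fall of *Hist2h3c1* was not called without replicate 2 of 0 h control (0.0617). With Akti1/2, 3 rose at 6 h (*Hist1h3a*, *Hist1h3d* and *Hist1h3e*, by 0.48 to 0.66) and 3 fell at 12 h (*Hist1h3a*, *Hist1h3e* and *Hist2h3c1*, by 0.43 to 0.59). The rise at 6 h was not called for *Hist1h3a* without replicate 2 of 0 h Akti1/2 or either 6 h Akti1/2 array (limma, adjusted p up to 0.134), for *Hist1h3d* without replicate 2 of 0 h Akti1/2 (0.0745), and for *Hist1h3e* without replicate 1 of 0 h or of 6 h Akti1/2 (up to 0.0600). The fall of *Hist1h3e* at 12 h (limma, adjusted p = 0.0478) was not called in 13 of the 16 fits that left out 1 array, with an adjusted p of up to 0.411. The median change of the 7 genes with Akti1/2 was 0.39 at 6 h and -0.41 at 12 h. At each of these times 42.9% of H3 genes were called, against 33.3% of all genes at 6 h and 44.5% at 12 h.

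*Hist1h3e* read 9.05 and 9.28 at 0 h, 9.53 and 9.37 at 2 h, 9.50 and 9.37 at 6 h, then 9.08 and 9.22 at 12 h in control cells. Its Akti1/2 arrays read 9.15 and 9.27 at 0 h, 9.34 and 9.34 at 2 h, 10.03 and 9.71 at 6 h, then 9.02 and 8.55 at 12 h. The 6 h arrays with Akti1/2 stood above all others of this gene. *Hist2h3b* read 11.06 and 11.10 at 0 h, 11.02 and 11.51 at 2 h, 10.97 and 10.95 at 6 h, then 10.66 and 10.72 at 12 h in control cells. With Akti1/2 it read 11.29 and 11.18 at 0 h, 11.44 and 11.80 at 2 h, 11.20 and 11.42 at 6 h, then 10.75 and 10.88 at 12 h. It passed no test. *Hist2h3c1* read 9.58 and 9.85 at 0 h, 9.94 and 9.95 at 2 h, 9.55 and 9.62 at 6 h, then 9.23 and 9.20 at 12 h in control cells. With Akti1/2, *Hist2h3c1* read 9.91 and 9.97 at 0 h, 10.20 and 10.21 at 2 h, 10.12 and 10.01 at 6 h, then 9.51 and 9.40 at 12 h. Its 12 h arrays lay lowest in both arms. *Hist1h3d* read 8.94 and 8.95 at 0 h, 9.34 and 9.16 at 2 h, 9.28 and 9.17 at 6 h, then 8.75 and 9.02 at 12 h in control cells. With Akti1/2, *Hist1h3d* read 9.09 and 8.95 at 0 h, 9.08 and 9.32 at 2 h, 9.54 and 9.51 at 6 h, then 8.79 and 8.61 at 12 h. Its 6 h arrays with Akti1/2 were the highest of the 16. Between 6 h and 12 h with Akti1/2, 4 H3 genes fell, *Hist1h3e* by 1.09 ± 0.16 and *Hist1h3a* by 1.07 ± 0.14. No H3 gene differed in response between the arms at 2, 6 or 12 h by limma, and 0 of 7 had an unadjusted p under 0.05 at any of these times, against 26.3%, 33.9% and 42.6% of all genes. At an adjusted p under 0.05, *Hist1h3a* was lower with Akti1/2 at 12 h (by 0.39), *Hist1h3e* and *Hist2h3c1* were higher at 6 h (0.44 and 0.48), and *Hist1h3g* was lower at 2 h (by 0.55). The H3 share called was 14.3% at 2 h, 28.6% at 6 h and 14.3% at 12 h, against 28.4%, 37.6% and 49% of all genes. When 1 array was left out, the call of *Hist1h3e* at 6 h was lost in 13 of 16 fits (adjusted p up to 0.268), that of *Hist1h3g* at 2 h in 11 (up to 0.342) and that of *Hist1h3a* at 12 h in 5 (up to 0.298).

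H4 genes rose at 6 h with Akti1/2. Of 10 tested, 7 rose from 0 h, against 15.5% of all genes called higher. At 6 h 8 were above control cells, against 18.8% of all genes called higher. In control cells 1 H4 gene rose at 6 h (*Hist1h4k*, by 0.43 ± 0.11), which is 10% against 27.6% of all genes called, and none fell at any time. This rise was not called without either 0 h control array or replicate 1 of 6 h control (limma, adjusted p = 0.0519 to 0.0711). Of the 7 rises with Akti1/2, that of *Hist1h4h* was not called in 10 of the 16 fits that left out 1 array (up to 0.168), and those of *Hist1h4i* and *Hist1h4j* in 2 each (up to 0.116 and 0.0855). Of the 8 above control cells, *Hist1h4h* and *Hist1h4i* were not called in 3 fits each (up to 0.0889 and 0.147). Of the 7 H4 genes above background on all 16 arrays, 6 rose at 6 h with Akti1/2 and 7 were above control cells, when only such genes were tested. Both counts over the 10 include *Hist1h4c*, which passed the filter only through the 2 arrays of 6 h Akti1/2, where it was at least 1.55-fold above control cells.

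*Hist1h4k* read 7.30 and 7.33 at 0 h, 7.67 and 7.52 at 2 h, 7.77 and 7.71 at 6 h, then 7.53 and 7.60 at 12 h in control cells. In inhibited cells it read 7.74 and 7.72 at 0 h, 7.75 and 7.85 at 2 h, 8.68 and 8.57 at 6 h, then 8.17 and 7.93 at 12 h. Both 6 h arrays with Akti1/2 lay above every other array. It rose by 0.90 ± 0.11 at 6 h with Akti1/2 (limma, adjusted p = 6.39e-05), was 1.85-fold above control cells at 6 h (0.89 ± 0.11 on the log2 scale), and fell by 0.58 between 6 h and 12 h.

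*Hist1h4m* read 6.86 and 7.44 at 0 h, 7.50 and 7.10 at 2 h, 7.44 and 7.32 at 6 h, then 7.21 and 7.25 at 12 h in control cells. Under the inhibitor it read 7.52 and 7.52 at 0 h, 7.62 and 7.51 at 2 h, 8.59 and 8.32 at 6 h, then 7.94 and 7.62 at 12 h. *Hist1h4f* read 7.31 and 7.33 at 0 h, 7.61 and 7.85 at 2 h, 7.69 and 7.55 at 6 h, then 7.23 and 7.78 at 12 h in control cells. In each of these genes the 6 h arrays with Akti1/2 were the highest. With Akti1/2, *Hist1h4f* read 7.99 and 7.68 at 0 h, 8.00 and 7.98 at 2 h, 8.55 and 8.80 at 6 h, then 7.61 and 7.63 at 12 h. *Hist1h4j* read 7.80 and 7.65 at 0 h, 7.94 and 7.75 at 2 h, 7.87 and 7.94 at 6 h, then 7.96 and 7.94 at 12 h in control cells. Its Akti1/2 arrays read 7.93 and 8.08 at 0 h, 7.66 and 7.71 at 2 h, 8.68 and 8.43 at 6 h, then 8.28 and 7.83 at 12 h. At 6 h the difference from control cells was 1.07 ± 0.19 for *Hist1h4m*, 1.05 ± 0.17 for *Hist1h4f* and 0.66 ± 0.15 for *Hist1h4j*.

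The response at 6 h differed between the arms for 2 of 10 H4 genes, which is 20% against 19.5% of all genes called. These were *Hist1h4k*, by 0.47 ± 0.15 (limma, adjusted p = 0.0497), and *Hist1h4c*, which passed the filter only through the 6 h Akti1/2 arrays. The call of *Hist1h4k* was lost in 13 of the 16 fits that left out 1 array, and that of *Hist1h4c* in 5. At 0 h, 9 of the 10 H4 genes read higher with Akti1/2, with a median of 0.35 and none called. The median difference from control cells over the 10 H4 genes was 0.77 at 6 h and 0.27 at 12 h, where *Hist1h4k* and *Hist1h4m* were still higher. That is 20% of the H4 genes, below the 49% of all genes called at 12 h. The call of *Hist1h4m* at 12 h was lost without either 12 h control array or replicate 1 of 12 h Akti1/2 (limma, adjusted p up to 0.201). Between 6 h and 12 h with Akti1/2, 7 H4 genes fell, and 2 of these calls held in each fit that left out 1 array.

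**Figure D4:**
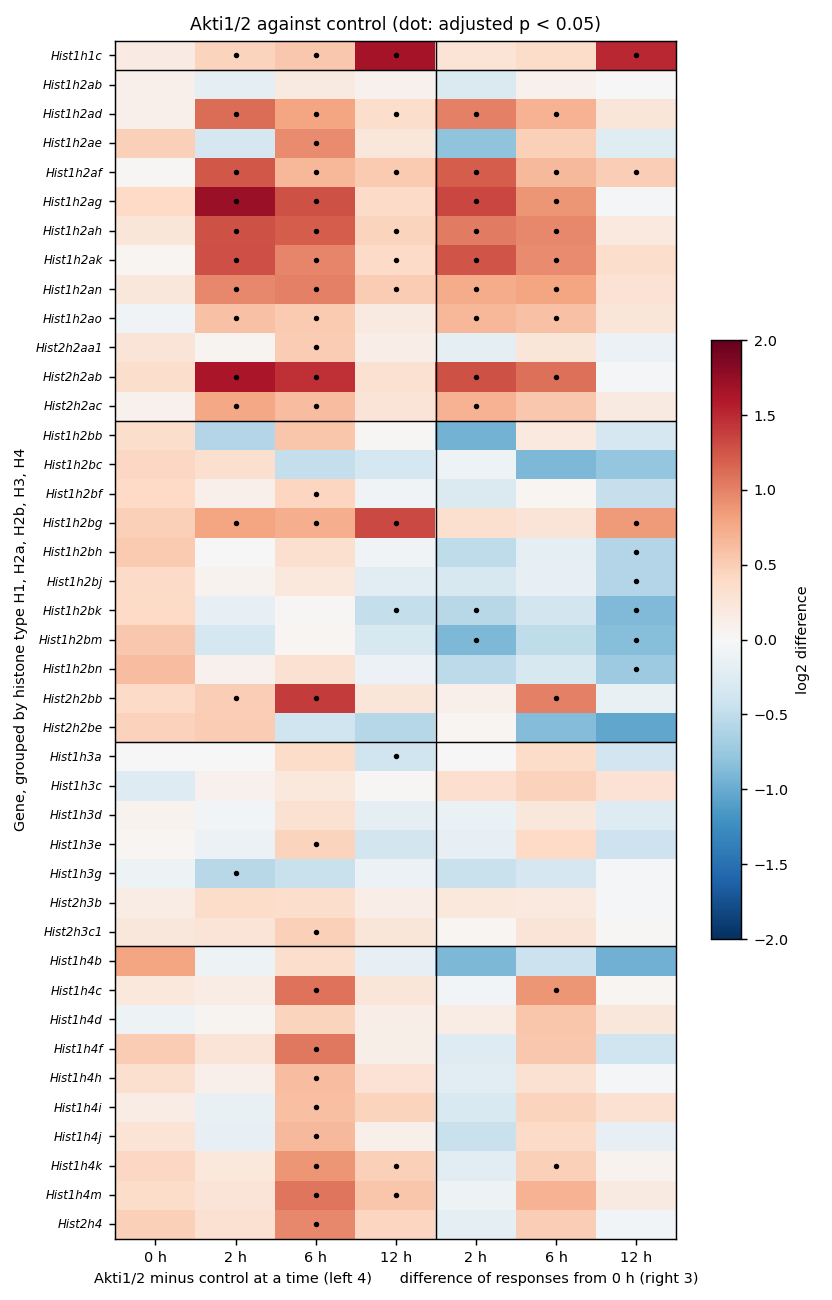
Log2 difference between Akti1/2-treated and control cells for the 41 tested canonical histone genes at 0, 2, 6 and 12 h (left 4 columns), and the difference of their responses from 0 h (right 3 columns), with red for higher with Akti1/2 and dots at an adjusted p under 0.05. The H2a block is red at 2 h and 6 h, the H4 block at 6 h, and *Hist1h1c* at 12 h.

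Genes of all 5 types fell between 6 h and 12 h with Akti1/2. Against 0 h no H4 gene was lower at 12 h, with a median change of 0.02 over the H4 genes. From 6 h to 12 h in inhibited cells 31 members fell and none rose, against 17.7% of all genes called and 8.82% called lower. By type these were *Hist1h1c*, 9 H2a, 10 H2b, 4 H3 and 7 H4 genes, and 22 of the 31 calls held in each fit that left out 1 array. In control cells 11 members fell and none rose between these times (13.6% of all genes called), of which 8 were H2b genes. From 2 h to 6 h, no member rose and 3 fell in control cells (14.6% of all genes called), while 14 rose and 3 fell with Akti1/2 (30.2%). Of these 14, 6 were H4 and 5 H2b genes. Of the 17 calls with Akti1/2, 9 were left without replicate 2 of 2 h Akti1/2 and 10 without replicate 1 of 6 h Akti1/2.

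Other genes of chromatin assembly and the cell cycle were taken from lists that hold no canonical histone gene. Of 46 tested DNA replication and G1/S genes, 25 fell and none rose at 6 h in control cells, against 15.4% of all genes called lower. At 12 h 4 rose and 7 fell, which is 23.9% called against 27.8% of all genes. With Akti1/2, 17 fell at 6 h (37% against 17.9% of all genes called lower) and 34 fell at 12 h (73.9% against 23.3%), and none rose at either time. At 12 h 28 were lower than in control cells and none higher, against 24.8% of all genes called lower, with a median of -0.52 beside -0.02 over all genes. *Rrm2*, a subunit of ribonucleotide reductase, differed by -2.04 ± 0.10 and *Ccne2*, a cyclin of the G1/S transition, by -2.14 ± 0.18 at 12 h (limma, adjusted p = 4.95e-08 and 2.02e-06). *Pcna*, the replication clamp, differed by -1.19 ± 0.43 and *E2f1* by -1.12 ± 0.14. In the same comparison 9 canonical histone genes were higher and 2 lower, against 24.2% of all genes called higher and 24.8% called lower. Of 21 tested G2/M and mitosis genes, 7 were above and 1 below control cells with Akti1/2 at 6 h, and 2 above and 6 below at 12 h. Both counts are 38.1% of the list, against 37.6% of all genes called at 6 h and 49% at 12 h.

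Of 16 tested histone chaperones, which carry and deposit histones, 12 were lower with Akti1/2 at 12 h and none was higher, against 24.8% of all genes called lower. At 2 h 5 were higher and 1 lower, against 28.4% of all genes called. *Chaf1b*, a subunit of the replication-coupled assembly factor CAF-1, differed by -1.23 ± 0.16 at 12 h, and the H1 and H3-H4 chaperone *Nasp* by -1.10 ± 0.12 at 12 h. Of 7 tested histone variants, whose genes are outside the clusters, none passed at 2 h or 6 h in control cells. At 12 h in control cells 2 fell (*H2afx* by 0.74 and *H3f3b* by 0.67), which is 28.6% of the list against 27.8% of all genes called. *H2afz*, which encodes H2A.Z, did not pass in control cells at any time and was lower with Akti1/2 by 0.49 ± 0.10 at 6 h. *H1f0*, the gene of the linker variant H1.0, was higher with Akti1/2 by 0.91 ± 0.30 at 12 h. In this comparison 2 of the 7 variants were higher and 2 lower, which is 57.1% against 49% of all genes called. The lower ones were *H2afy*, by 0.55, and *H2afz*, by 0.42. At 2 h *H2afy* was higher with Akti1/2 by 0.60. From 0 h to 12 h with Akti1/2, 4 variants fell, which is 57.1% against 44.5% of all genes called.

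Of 13 tested factors of histone gene transcription and mRNA 3′ end processing, 3 were higher and 7 lower with Akti1/2 at 12 h (49% of all genes called), and 4 higher and 3 lower at 2 h (28.4%). *Thex1*, a 3′ exonuclease that binds the histone stem-loop, was not above background on either 12 h Akti1/2 array and was at least 2.83-fold lower than in control cells. *Lsm10*, a protein of the U7 particle that cleaves histone pre-mRNA, was higher with Akti1/2 by 1.11 ± 0.15 at 2 h, 0.94 at 6 h and 0.81 at 12 h. *Mizf*, a factor that binds H4 promoters, was higher by 1.10 ± 0.25 at 6 h. *Pou2f1*, the Oct-1 factor that binds the octamer, was not above background at 12 h with Akti1/2 and at least 1.37-fold lower than in control cells. *Slbp*, which binds the stem-loop, and *Casp8ap2* did not pass the filter. Whether any of these genes bears on the histone values was not tested.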

How the data were processed

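D10 cells in 8 groups of 2 arrays were profiled on Illumina mouse RefSeq arrays. The deposited table holds bead intensities that the authors exported without normalization or background subtraction. The tool version and the probe sequences were not given in the sources used here. A second table of control beads covered 15 arrays and held the same values, and it served only as a check.

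Intensities were corrected by normexp on the 798 negative controls (offset 16), quantile-normalized and log2-transformed with neqc of limma 3.58.1 in R 4.3.3. The tested genes reached a detection p under 0.01 on 2 or more arrays. One limma fit over 8 groups gave 17 contrasts, two-sided, with Benjamini-Hochberg adjustment over 7395 genes (8 residual degrees of freedom). The 2 arrays of a group limit the precision. The fit was tested on simulated data. A fold "at least" compares the brighter group with, on each array, the higher of the dimmest signal above background and the gene's own.

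Alternatives were 2 other normalizations, 2 other filters, the replicate number or chip as a block, each chip alone, the compared groups alone, and leaving out each array. The members and lists were chosen with earlier results of these data known. Values of every array are given for up to 4 genes per type with the highest mean signal and the 3 largest called differences per family of contrasts, *Hist1h2ak* and *Hist1h2bn* being added as an example pair. From the other lists, a fixed set and the largest called differences at 6 h and 12 h were named. Promoter sequences are from RefSeq, GRCm38.p6. Figures were drawn with matplotlib 3.10.9.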

Additional observations from a re-analysis of the deposited data

Results flagged for a closer look

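The change from 0 h differed between Akti1/2-treated and control cells in 27 tests of canonical histone genes that were above background on at least 1 array of each of the 4 groups (limma interaction contrast, adjusted p under 0.05 over all genes, log2 values of the Akti1/2 response minus the control response). All comparisons at 2, 6 and 12 h share the 0 h arrays of both arms. Among the 41 tested members the share called was 26.8% at 2 h, 26.8% at 6 h and 19.5% at 12 h. At 6 h and 12 h these shares also count called members outside the 27 tests, which were not above background in each of the 4 groups. At 6 h *Hist1h4c* is among them, and the genes listed below alone give a lower share. Over all genes it was 8.4%, 19.5% and 32.5%, so the member share at 12 h lay below that of all genes. Several of these calls were lost when 1 array was left out, as given with the results above.

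At 2 h the difference was positive in 9 H2a genes. It was 1.01 for *Hist1h2ad*, 1.21 for *Hist1h2af*, 1.33 for *Hist1h2ag*, 1.03 for *Hist1h2ah*, 1.26 for *Hist1h2ak*, 0.74 for *Hist1h2an*, 0.66 for *Hist1h2ao*, 1.28 for *Hist2h2ab* and 0.70 for *Hist2h2ac*. It was negative in 2 H2b genes, -0.56 for *Hist1h2bk* and -0.90 for *Hist1h2bm*.

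At 6 h the difference was 0.69 for *Hist1h2ad*, 0.64 for *Hist1h2af*, 0.88 for *Hist1h2ag*, 0.96 for *Hist1h2ah*, 0.94 for *Hist1h2ak*, 0.79 for *Hist1h2an*, 0.59 for *Hist1h2ao* and 1.10 for *Hist2h2ab*, all H2a genes. It was 0.47 for the H4 gene *Hist1h4k*, a call lost in 13 of the 16 fits that left out 1 array.

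At 12 h the difference was 1.51 for *Hist1h1c* and 0.50 for *Hist1h2af*, the latter call lost in 13 of the 16 fits that left out 1 array. It was negative in 5 H2b genes, -0.59 for *Hist1h2bh*, -0.59 for *Hist1h2bj*, -0.88 for *Hist1h2bk*, -0.86 for *Hist1h2bm* and -0.73 for *Hist1h2bn*.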

How the results depend on the processing

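No member changed the direction of a called difference under any alternative. The 9 H2a genes were lower at 2 h in control cells, and higher with Akti1/2 at 2 h, under each of the 7 alternatives that kept all arrays of the groups compared and gave a test. With only the groups compared, 2 members in place of 4 were called at 2 h against 0 h with Akti1/2, 5 in place of 11 for the 6 h response, 8 in place of 17 from 2 h to 6 h with Akti1/2, and 20 in place of 31 from 6 h to 12 h with Akti1/2. Fewer arrays entered these fits. Without the filter 7 members in place of 11 differed at 12 h, over more genes tested. Quantile normalization without background correction called 1 member at 0 h in place of 0, and scaling arrays to the same mean called 5 in place of 8 for the 12 h response, and the cause was not tested.

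Scaling to the same mean moved the median of all genes by 0.13 for the 6 h response and by 0.10 for the 12 h response. The share of all calls that were higher went from 43.0% to 25.9% at 2 h and from 44.1% to 30.6% at 6 h in control cells, from 50.1% to 60.8% for Akti1/2 against control at 6 h, and from 50.4% to 64.7%, 52.7% to 71.9% and 50.0% to 60.6% for the 2, 6 and 12 h responses. Quantile normalization alone moved it from 75% to 85.7% at 0 h.

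Leaving out each array in turn gave 10 to 15, 13 to 18 and 17 to 22 calls at 2, 6 and 12 h in control cells, and 3 to 5, 10 to 15 and 21 to 23 with Akti1/2. Akti1/2 against control gave 0, 11 to 14, 21 to 26 and 7 to 12 at 0, 2, 6 and 12 h, and the responses 4 to 11, 5 to 11 and 5 to 13. Between successive times the counts were 2 to 3 and 10 to 12 in control cells, and 9 to 19 and 24 to 32 with Akti1/2. The lone array of a group was assumed to vary like the others.

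Samples of the same replicate number mostly did not deviate together (r from -0.296 to 0.264, over 0.1 in 7 of 28 group pairs). Arrays of the same replicate number also lay on the same chip, except in the 12 h control group, where the chips were swapped. Paired by chip, r was over 0.1 in 8 of 28 group pairs. The median r was 0.017 by replicate number and 0.027 by chip. With the replicate number as a block the counts were 13, 18 and 20 in control cells, 4, 16 and 23 with Akti1/2, 0, 12, 24 and 11 between the arms, and 11, 10 and 10 for the responses.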
